A study of Mus musculus with 12 samples.

Results

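Among 26210 cells that passed filters in sorted mouse brain myeloid libraries, 97 (0.370%) carried the transcripts of MHC class II antigen presentation together with genes of dendritic cells and few genes of border macrophages. These Cd209a dendritic-like MHC class II cells, called members here, were chosen from their own counts. A barcode had to hold at least 300 genes, at least 500 UMIs (counted molecules) and at most 10% mitochondrial UMIs. It had to show at least 3 of the 4 class II genes Cd74, H2-Aa, H2-Ab1 and H2-Eb1, at least 2 of the 5 dendritic genes Cd209a, Itgb7, Napsa, Flt3 and Crip1, and fewer than 3 of the 7 macrophage genes Mrc1, Pf4, Ms4a7, Cd163, Lyve1, Cbr2 and F13a1. The series asked how the way a brain is dissociated alters the transcriptomes of its cells. Whole brains of 12 male C57BL/6J mice, each at postnatal day 90, were perfused, stripped of meninges as far as possible and sorted for live cells positive for CD45 and CD11b, with 1 mouse per library and 3 mice in each of 4 groups. DNC-NONE brains, labelled Cold Dounce, were broken up mechanically on ice, and DNC-INHIB brains in the same way with inhibitors. ENZ-NONE brains, labelled Enzymatic, were digested with enzymes in the warm, and ENZ-INHIB brains in the same way with inhibitors. The inhibitors were actinomycin D and triptolide, which block transcription, with anisomycin, which blocks translation. The gate, the strain and the sex were shared by all 4 groups, so cells low in CD11b and cells of the removed meninges were outside what could be counted.

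Conventional dendritic cells take up antigen, load its peptides onto class II molecules and show them to CD4+ T cells. The class II molecule is a pair of chains, H2-Aa with H2-Ab1 in one form and H2-Eb1 with a partner that C57BL/6 mice do not express in the other, and Cd74, the invariant chain, holds the groove until H2-DM exchanges it for peptide. The co-activator Ciita switches on these genes through a shared promoter module of X and Y boxes. In healthy brain such cells are known mainly from the meninges and choroid plexus, while microglia, the macrophages of the parenchyma, hold little class II. Cd209a is a C-type lectin of the DC-SIGN family found on dendritic cells that arise with help of the growth factor receptor Flt3.

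The upstream sequences of 2 class II genes and of Cd209a are shown because the rule joined genes with and without the class II promoter module. RefSeq promoter windows on GRCm38.p6 were searched on both strands for the letters TGATTGG, the Y box as it stands in these genes, and TAGCAAC, a part of the X box. The 120 bases before the annotated start are printed 5′ to 3′ on the strand of the gene, with these letters in capitals.
H2-Aa, chr17:34287824-34287943, minus strand: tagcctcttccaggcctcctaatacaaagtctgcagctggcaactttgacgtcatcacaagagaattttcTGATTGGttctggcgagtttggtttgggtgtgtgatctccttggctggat
H2-Eb1, chr17:34305747-34305866, plus strand: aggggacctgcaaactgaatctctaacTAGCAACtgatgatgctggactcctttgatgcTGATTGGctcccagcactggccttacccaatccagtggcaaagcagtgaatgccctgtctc
Cd209a, chr8:3748985-3749104, minus strand: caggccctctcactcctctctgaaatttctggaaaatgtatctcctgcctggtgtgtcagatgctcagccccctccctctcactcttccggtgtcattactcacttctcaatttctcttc
TGATTGG began 50 bases before the start of H2-Aa and 61 bases before that of H2-Eb1. It also stood 63 bases before H2-DMb1, 92 before H2-DMb2, 45 before H2-Oa and 59 before H2-Ob, and TAGCAAC stood 93 bases before H2-Eb1 and 89 before H2-Ob. Within 120 bases of the start, TGATTGG was held by 5.15% and TAGCAAC by 1.91% of 32851 RefSeq promoter windows. Neither motif was in the windows of H2-DMa, Cd209a, Itgb7, Flt3, Crip1, Ccr2, Plbd1 and Mgl2. H2-Ab1, Ciita, Napsa and Clec10a were not searched. In GENCODE vM21 coordinates of the same build, H2-Aa lies at chr17:34282744-34287823, H2-Ab1 at chr17:34257689-34269419, H2-Eb1 at chr17:34305867-34316674 and Cd209a at chr8:3743397-3748984.

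The 12 libraries held 28426 deposited barcodes and 33742845 UMIs, from 2118143 to 3654465 UMIs a library, and 1700 to 2622 cells of each were kept. The DNC-NONE libraries gave 13, 10 and 9 members and the DNC-INHIB libraries 8, 9 and 8. The ENZ-NONE libraries gave 6, 2 and 13 and the ENZ-INHIB libraries 9, 4 and 6. Their summed counts were 232655 UMIs, from 3343 in ENZ-NONE 5 with its 2 cells to 39451 in ENZ-NONE 6. A member held a median of 2328 UMIs and 1089 genes, against 1200 UMIs in the other kept cells, and the members' median was the higher in 12 of 12 libraries. Members were set beside 216 border macrophage-like cells, 92 monocyte-like cells and 25413 microglia-like cells, named from fixed markers, while 392 cells stayed unclassed. The monocyte-like class also held neutrophil transcripts at 2.59% of its UMIs and had no cell in ENZ-INHIB 3. Of 27914 distinct barcodes, 503 occurred in 2 or more libraries. The barcodes of 6 members occurred in another library too, and 0 were shared by 2 members.

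The rule's class II genes made up 12.4% of the members' UMIs, against 4.13% in border macrophage-like, 0.699% in monocyte-like and 0.0422% in microglia-like cells. Among single members this share ran from 2.21% to 22.4%, with a median of 13.4%. Levels below are CPM, the UMIs of a gene scaled to a common total over all UMIs of the summed cells of a library, as mean ± SD over n = 12 libraries unless stated. Because these genes chose the cells, the values describe the members and carry no test.

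Cd74 stood at 81056 ± 18441 CPM in members and at 998 ± 275 in the other kept cells. H2-Aa stood at 15691 ± 4214 against 168, H2-Ab1 at 20635 ± 5471 against 235, and H2-Eb1 at 7742 ± 2868 against 88.5. For H2-Aa the 3 DNC-NONE libraries read 12217, 15552 and 17604 CPM, the DNC-INHIB libraries 18024, 17191 and 20372, the ENZ-NONE libraries 18435, 8974 and 13485, and the ENZ-INHIB libraries 7791, 17964 and 20685. The lowest values came from ENZ-INHIB 1 and ENZ-NONE 5, and the ranges of the 4 groups overlapped. All 4 class II genes were seen in 93 members and 3 of them in the other 4. Of the dendritic genes, 31 members showed 2, 24 showed 3, 28 showed 4 and 14 showed all 5.

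Cd209a was found in 70.1% of members and in 0.0944% of microglia-like cells, whose median depth was 1202 UMIs. After every cell was thinned to 500 UMIs, in 1 random draw used throughout, 58.8% of members still showed it. Its level was 3406 ± 1884 CPM against 1.69 in the other kept cells, and in cells where it was seen it gave 1 to 52 UMIs with a median of 10. Crip1, a small LIM-domain protein, was in 97.9% of members at 3384 ± 806 CPM, but monocyte-like cells held 4407 CPM, so Crip1 alone did not set members apart from them. Napsa, an aspartic protease, was in 81.4% of members, Itgb7, an integrin beta chain, in 54.6% and Flt3 in 21.6%, against 0.0315%, 0.0826% and 0.0472% of microglia-like cells. Thinned to 500 UMIs the same genes were in 27.8%, 15.5% and 7.22% of members. Of the other CD209 lectins, Cd209b gave 4 UMIs, Cd209e 1 and Cd209c, Cd209d, Cd209f and Cd209g 0. Border macrophage-like cells held 293 CPM of Cd209f and 93.8 of Cd209g, against 81.4 of Cd209a. These lectins are close relatives in sequence, so reads may be split among them.

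**Figure D1:**
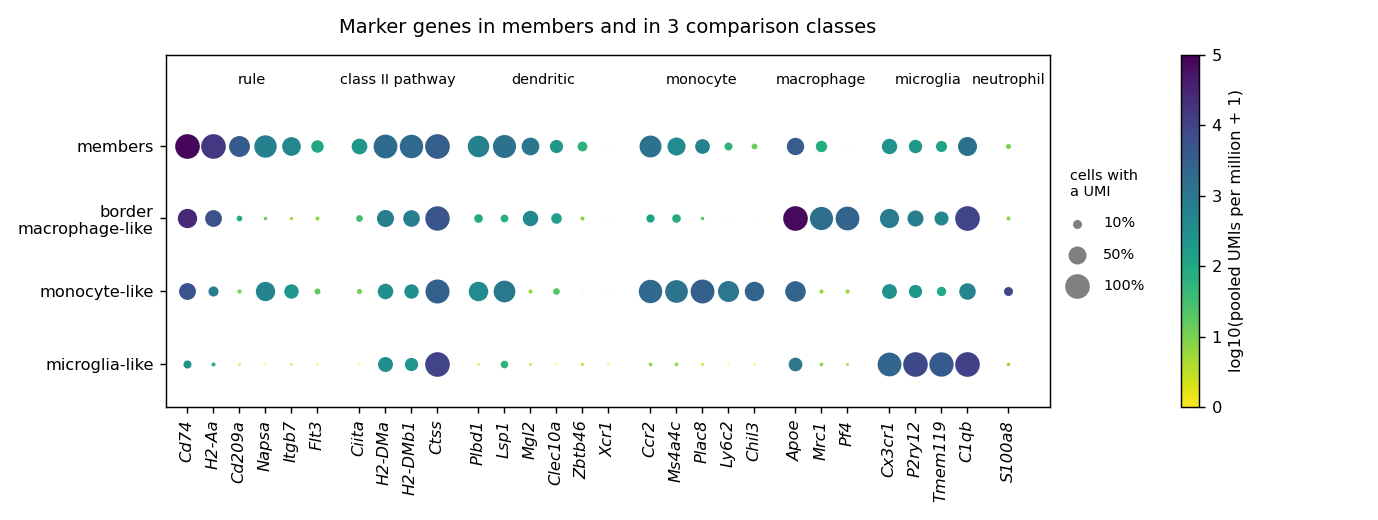
Each column is a gene and each row a class of cells; the area of a dot is the percentage of cells with at least 1 UMI and its colour the log10 of pooled CPM plus 1. The members' row holds both class II and Cd209a (in 70.1% of members), shares Ccr2, Plbd1 and Lsp1 with the monocyte-like row, and lacks Pf4, which marks the border macrophage-like row.

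Genes of class II loading outside the rule split in 2 sets. Of the 11 measured genes of this list, 6 had a higher mean level in members than in other kept cells, and 2 of them, H2-DMa and H2-DMb1, were higher in all 12 libraries. As background, 171 of 923 genes found in at least 30% of either population (18.5%) were higher in members in all 12 libraries, 63.2% had a higher mean, and the median ratio of these 923 genes was 1.34. Most genes of the lists below are sparser than these. The regulators and chaperones were the high set: Ciita stood at 201 ± 96.8 against 0.997 CPM, H2-DMa at 1957 ± 485 against 360, H2-DMb1 at 1828 ± 561 against 259 and H2-DMb2 at 373 ± 298 against 12.5. H2-DMb1 and H2-DMb2 are near copies, and their separate counts are uncertain. H2-Oa and H2-Ob, which restrain H2-DM, stood at 4.13 and 3.62 times the level of other kept cells. The lysosomal proteases were the low set. Cathepsin S (Ctss), which trims the invariant chain, stood at 0.375 times the level of other kept cells, legumain (Lgmn) at 0.0910 times and cathepsin D (Ctsd) at 0.0497 times, each lower in 12 of 12 libraries. Ctsc, which activates granule proteases, stood at 0.986 times.

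Genes of co-stimulation, the second signal to T cells, were sparse. Of 9 genes, 7 had a UMI in members and Cd274 and Cd1d1 had none among 232655 UMIs, a count that allows up to 12.9 CPM. Cd86 stood at 46.0 ± 53.6 against 275 CPM in other kept cells, and was in 13.4% of members against 28.2% of microglia-like cells. Cd83 stood at 198 ± 325 against 215. Tnfsf9, the 4-1BB ligand, stood at 77.2 ± 129 against 3.75, with UMIs in 13.4% of members. The counts of both lay mainly in 2 warm-digested libraries: Cd83 gave 13, 0 and 28 of its 54 UMIs in the ENZ-NONE libraries and Tnfsf9 2, 0 and 17 of its 28.

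The label was checked on dendritic markers the rule had not used. Of 13 genes of conventional type 2 dendritic cells, 12 had a UMI in members, 10 had a higher mean than in other kept cells, and 1 was higher in all 12 libraries. The 10 of 13 lay a little above the background of 63.2% and the 1 of 13 below that of 18.5%, so neither count set the list apart. Its median ratio was 12.3 against 1.34. The gene higher in all 12 was Mgl2, a galactose-binding lectin, at 1100 ± 672 against 8.52 CPM, and at 435 in border macrophage-like and 4.39 in monocyte-like cells. Mgl2 is also on the list of other border macrophage genes used below. Clec10a, its close relative, stood at 213 ± 201 against 1.87, and the pair may share reads. Clec12a, an inhibitory lectin, stood at 233 ± 194 against 5.99, Kmo, an enzyme of tryptophan breakdown, at 109 ± 161 against 0.349, and the transcription factor Klf4 at 151 ± 120 against 11.8. Sirpa and Itgam, which microglia also express, stood at 0.294 and 0.324 times the level of the others. At least 1 gene of this list was seen in 92 members and at least 2 in 74.

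Of 13 genes shared by dendritic cells, 13 had a UMI, 9 had a higher mean in members and 1 was higher in all 12 libraries, again near or under the background, with a median ratio of 19.4. Plbd1, a phospholipase-like protein, stood at 603 ± 303 against 5.87 CPM and was in 74.2% of members. Lsp1, an actin-binding protein of leukocytes, stood at 1270 ± 351 against 65.6 and was higher in 12 of 12 libraries. Id2, a regulator needed for dendritic development, stood at 551 ± 588 against 35.4. Zbtb46, the transcription factor that marks conventional dendritic cells, gave 14 UMIs in 12.4% of members, at 51.4 ± 51.1 against 2.16 CPM. Plbd1 and Lsp1 were also present in monocyte-like cells, at 434 and 822 CPM, whereas Zbtb46 was at 0 there. Cst3, an inhibitor of cysteine proteases that microglia hold in bulk, stood at 10739 ± 2488 against 55154.

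Markers of other dendritic states were mixed. Of 11 genes of type 1 conventional cells, 7 had a UMI and 4 a higher mean than in other kept cells, and 59 members held at least 1 and 21 at least 2. Naaa, a lysosomal amidase, stood at 162 ± 110 against 48.2 CPM and the transcription factor Batf3 at 161 ± 240 against 55.8. Xcr1, Clec9a, Itgae and Cd8a of the same list gave 0 UMIs. Irf8, which type 1 cells and microglia both use, averaged 492 CPM but with an SD of 1096, because ENZ-NONE 5 read 3889. Of 9 migratory genes, 5 had a UMI and 3 a higher mean. Ccr7, which guides dendritic cells to lymph nodes, was at 0. Ccl17, a chemokine that draws T cells, gave 79 UMIs in 8 members, and 53.2% of these came from 1 cell. Of 8 plasmacytoid genes, 5 had a UMI and 2 a higher mean, and 57 members held at least 1. Bst2, an interferon-induced surface protein, stood at 233 ± 166 against 163 CPM, and the 10 UMIs of Ly6d came from 1 cell. Ccr9 was at 0, and Siglech stood at 44.1 ± 42.5 against 762 in other kept cells, where microglia express it.

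Some monocyte genes were also present. Of 12, 10 had a UMI, 9 had a higher mean than in other kept cells and 1 was higher in all 12 libraries, with a median ratio of 10.9. Ccr2, the chemokine receptor that lets monocytes leave the marrow, was in 77.3% of members at 1309 ± 475 against 26.9 CPM and 2095 in monocyte-like cells. Ms4a4c stood at 386 ± 310 and Plac8 at 774 ± 907, against 1045 and 3129 in monocyte-like cells. The defining genes of Ly6C-high monocytes were low: Ly6c2 stood at 41.8 CPM against 969 in monocyte-like cells, and Chil3 at 11.7 against 2166. Monocyte-like cells had been chosen on most of these genes, so their own levels are fixed in part by that choice. Members and monocyte-like cells overlapped in Ccr2 and parted at Ly6c2 and Chil3. Among chemokine receptors, Ccr1 was in 24.7% of members, Cxcr4 in 4.12%, and Ccr6, Ccr7 and Ccr9 in 0 of 97, which allows a share of up to 3.09%. Cx3cr1, the fractalkine receptor of microglia, stood at 250 ± 150 against 2449.

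Genes of migration and the cortical skeleton stood high as a set. Of 13 such genes, S100 proteins, annexins and their partners, 13 had a higher mean in members than in other kept cells and 9 were higher in all 12 libraries, Crip1 of the rule among them. Lgals3, a secreted galectin, stood at 1272 ± 409 against 29.0 CPM, S100a6 at 999 ± 332 against 12.5, Emp3 at 716 ± 300 against 71.7 and Vim at 458 ± 251 against 7.07. The same list took 1.07% of the UMIs of members, 1.74% of monocyte-like and 0.106% of border macrophage-like cells. Members thus stood between the other 2 non-microglial classes for these genes. Among integrins, Itga4, which pairs with Itgb7, stood at 93.2 ± 94.1 against 2.32 CPM and Itgb2 at 421 ± 215 against 400.

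Microglial identity genes were low throughout. All 18 had a lower mean in members, at 0.0115 to 0.512 times the level of other kept cells, and together they took 0.830% of the members' UMIs against 8.29% in microglia-like cells. P2ry12, a purine receptor, stood at 212 ± 255 against 7620.5 CPM and Tmem119 at 134 ± 174 against 3973. At least 3 of 7 defining microglial genes were seen in 5 members and none in 38. The source of these counts, free RNA, doublets or the cells' own transcripts, was not tested.

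Other lineages were read from further lists. The rule itself capped the 7 macrophage genes, of which 60 members showed 0, 30 showed 1 and 7 showed 2. The 11 other genes of border macrophages, Mgl2 among them, which it did not cap, were more frequent. Of these, 10 had a UMI and 7 a higher mean than in other kept cells, and together they took 0.665% of the members' UMIs, against 0.294% in other kept cells and 8.16% in border macrophage-like cells. Ms4a6c stood at 950 ± 324 against 116 CPM, and Clec4b1, a C-type lectin, at 472 ± 376 against 2.58 and 56.0 in border macrophage-like cells. T and natural killer cell genes were at 0 for 10 of 11, neutrophil genes for 6 of 8, and genes of neurons, glia and vessels for 11 of 13. As background, 9469 of all 31053 listed genes had a UMI in members. Most genes were thus at 0, so these counts say little of the lineages. Of the 8 B cell genes, 6 had a UMI. In ENZ-NONE 6, 1 member of 4099 UMIs held 5 of them, with 20 UMIs of Ighm, 6 of Ms4a1, 6 of Cd79b, 3 of Cd79a and 2 of Ebf1, and also 36 of Igkc and 10 of Ly6d, and no Cd209a. That cell went against the label. Ighm alone marks no B cell here, since 34.2% of microglia-like cells held it. Cell division genes took 0.0610% of the members' UMIs and 0.0535% of those of microglia-like cells, and Mki67 was at 0. Haemoglobin and related genes gave 1 UMI in all.

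Outside every list, the genes with the highest ratio of members to other kept cells, among genes found in at least 30% of members, were named by rank. The first was Slamf7, a receptor of the SLAM family, at 206 ± 143 against 0.591 CPM in other kept cells and 5.32 in pooled monocyte-like cells. Cfp, properdin, which stabilises the complement convertase, followed at 428 ± 304 against 4.20, then Rgs18, a regulator of G-protein signalling, at 219 ± 101 against 2.80 and Mcemp1 at 217 ± 130 against 3.14. Lgals1, Mcub, Fxyd5, Emb, Gsn, Wfdc17, Ifitm2 and Ifitm3 completed the 12, with ratios from 30.8 to 51.1. Of the 12, 8 were higher in all 12 libraries, a count that choosing them by this ratio favoured. Of the same 12, 6 had a higher mean still in monocyte-like cells. Wfdc17, Ifitm2 and Ifitm3 stood at 3191, 2525 and 4394 CPM there against 1589, 1366 and 2291 in members, and Mcemp1, Emb and Fxyd5 at 344, 557 and 1367 against 217, 277 and 1150. At the other end stood Crybb1, with 0 UMIs in members against 467 CPM, and Ecscr, Ltc4s, Ptgs1, Slc2a5 and Serpine2, each lower in 12 of 12 libraries.

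The members were not uniform, and cells near the boundary differed in genes the rule had not used. The 66 members with 3 or more dendritic genes held Apoe at 853 CPM and showed Plbd1 in 84.8% of cells, while the 31 with exactly 2 held Apoe at 10705 CPM and showed Plbd1 in 51.6%. Just outside, 69 kept cells met the other criteria but held 1 dendritic gene, Crip1 in 56 of them. Apoe stood at 29699 CPM in these 69 cells and Plbd1 was in 33.3%, with class II genes at 12.0% of UMIs. Cells with 2 class II genes that met the rest numbered 6, and 1 cell was outside only for holding 3 macrophage genes. Ccr2 was in 80.6% of the members with exactly 2 dendritic genes and in 72.5% of the cells just outside. Cd209a was in 93.9%, 19.4% and 5.80% of the same 3 sets, an order that counting it among the dendritic genes favours.

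Splitting members by Cd209a, a division chosen after its values were seen, gave 68 cells with a UMI (median depth 2483 UMIs, 11 libraries) and 29 without (2014 UMIs, 10 libraries). Apoe, the lipid carrier that macrophages make, stood at 794 CPM in the first and 11048 in the second, and C1qb of the complement C1q complex at 765 and 3576. Lyz2, lysozyme, stood at 7634 and 20946. Several genes of dendritic cells lay the other way. Mgl2 stood at 1453 and 160 CPM. Clec10a gave 53 UMIs against 0, Zbtb46 14 against 0, Bcl11a, a factor of dendritic progenitors, 16 against 0, and Ccl17 79 against 0. Others did not: Clec12a stood at 212 and 224 CPM, Klf4 at 147 and 128, Kmo at 82.3 and 63.9, and Cd24a at 23.5 and 112. Ccr2 was in 76.5% and 79.3% of cells. Napsa was in 80.9% and 82.8%. Apoe reached 10 UMIs in 19 members, of which 4 had Cd209a and 15 had none, and of 51 members with at least 5 Cd209a UMIs, 1 had 10 or more of Apoe. In Apoe and C1qb the 29 members without Cd209a lay between those with it and the cells just outside, which held 29699 and 6353 CPM. With 1 value per pool of cells these differences have no test.

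The first question across preparations was whether dissociation altered how many members were recovered. Members made up 0.534%, 0.442% and 0.351% of the kept cells of the DNC-NONE libraries and 0.350%, 0.346% and 0.305% of the DNC-INHIB libraries. They made up 0.288%, 0.118% and 0.663% of the ENZ-NONE libraries and 0.438%, 0.218% and 0.330% of the ENZ-INHIB libraries. ENZ-NONE held both the lowest and the highest library, so every other group lay within its range. The exact 95% binomial interval, which covers counting error only, ran from 0.0143% to 0.424% for ENZ-NONE 5 and from 0.354% to 1.13% for ENZ-NONE 6. Digested brains averaged 0.343% ± 0.190 (SD, n = 6) and Dounced brains 0.388% ± 0.0845 (n = 6), a difference of -0.0456 percentage points (two-sided exact permutation test, p = 0.593). Brains with inhibitors averaged 0.331% ± 0.0714 and those without 0.399% ± 0.192, a difference of -0.0681 points (two-sided exact permutation test, n = 6 and 6, p = 0.450). ENZ-NONE averaged 0.356% ± 0.279 (n = 3) and the other 9 libraries 0.368% ± 0.0915, a difference of -0.012 points (two-sided exact permutation test, p = 0.891). No difference in recovery was detectable with 2 to 13 members a library. The labels put 6 libraries in each of 2 batches. The digested minus Dounced difference was positive in batch 2 alone, at 0.0697 points, and the inhibitor difference was positive in batch 1 alone, at 0.0487 points.

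**Figure D2:**
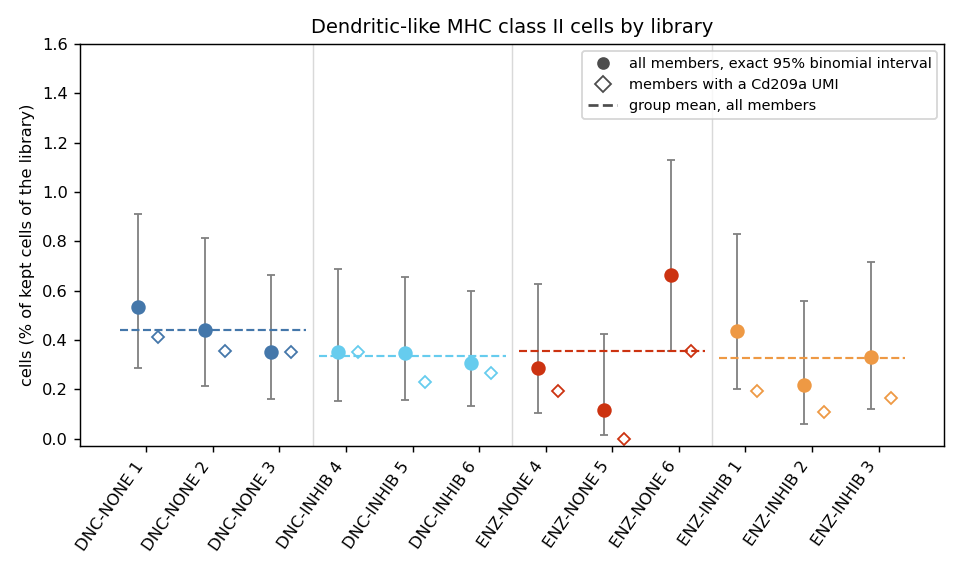
Members as a percentage of the kept cells of each library (filled circles with exact 95% binomial intervals; dashed lines are group means, n = 3) and members with a Cd209a UMI on the same scale (open diamonds). ENZ-NONE 5 and ENZ-NONE 6 hold the lowest and highest filled circles, at 0.118% and 0.663%, and the open diamond of ENZ-NONE 5 is at 0.

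Members with Cd209a were counted by preparation next, a question raised by the values themselves, so these counts carry no test. Cd209a is 1 of the 5 dendritic genes of which the rule asked for 2, so its detection is tied to theirs. A Cd209a UMI was found in 10 of 13, 8 of 10 and 9 of 9 members of the DNC-NONE libraries and in 8 of 8, 6 of 9 and 7 of 8 of the DNC-INHIB libraries. In the ENZ-NONE libraries it was found in 4 of 6, 0 of 2 and 7 of 13 members and in the ENZ-INHIB libraries in 4 of 9, 2 of 4 and 3 of 6. The Dounced libraries ran from 66.7% to 100% and the digested from 0% to 66.7%, so the ranges met at a single value. In batch 1 the Dounced libraries ran from 76.9% to 100% and the digested from 0% to 66.7%, and in batch 2 from 66.7% to 100% and from 50% to 53.8%. Pooled, 84.2% of 57 members from Dounced and 50% of 40 members from digested brains had a Cd209a UMI, and 68.4% and 45% after thinning to 500 UMIs. Median depths overlapped, from 1843 to 2969 UMIs a member in Dounced and 1571 to 3011 in digested libraries. The Cd209a level was 3668, 3363 and 3808 CPM for the DNC-NONE and 7967, 2980 and 3882 for the DNC-INHIB libraries. It was 4589, 0 and 2028 for the ENZ-NONE and 3861, 2764 and 1962 for the ENZ-INHIB libraries. By level the preparations overlapped, with ENZ-NONE 4 and ENZ-INHIB 1 inside the Dounced range.

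Apoe in members ran from 48.6 to 5029 CPM in Dounced and from 3980 to 18546 in digested libraries, while the other kept cells stayed between 1252 and 3628. Only DNC-NONE 1 (5029 CPM) among the Dounced libraries lay above the lowest digested library. Both upper ends rested on few cells. The 18546 CPM of ENZ-NONE 5 was 62 UMIs from 1 cell, and 2 cells gave 114 and 50 of the 170 UMIs of DNC-NONE 1. In batch 2 alone the Dounced libraries read 544, 1375 and 793 CPM and the digested 3980, 4146 and 9893, which do not overlap, whereas in batch 1 they did. Of the rule's other dendritic genes, Napsa was in 80.7% of members of Dounced and 82.5% of digested brains, and in 24.6% and 32.5% after thinning. Crip1 was in 98.2% and 97.5%, near the ceiling, and in 71.9% and 72.5% after thinning. Flt3 was in 29.8% and 10.0%, and in 8.77% and 5.0% after thinning. Of the 17 Dounced members with Flt3, 7 were in DNC-NONE 3. Itgb7 was in 66.7% and 37.5% pooled, and in 21.1% and 7.5% after thinning. The pooled gap lay in the groups with inhibitors, at 80% of DNC-INHIB and 21.1% of ENZ-INHIB members. Without inhibitors it was in 56.2% of DNC-NONE and 52.4% of ENZ-NONE members. By mean level Itgb7 was higher in ENZ-NONE, at 711 ± 699 CPM, than in DNC-NONE, at 506 ± 86.6. That mean rested on ENZ-NONE 5, where 5 UMIs in 2 members gave 1496 CPM, while ENZ-NONE 4 and 6 read 156 and 482. By median, ENZ-NONE stood at 482 and DNC-NONE at 503 CPM. In the test across genes below, Apoe did not pass for ENZ-NONE (log2 fold change 1.59 ± 0.56 SE, edgeR adjusted p = 0.235). That test counts ENZ-INHIB, at a mean of 7185 CPM of Apoe, among the groups set against ENZ-NONE. Apoe in digested against Dounced brains was not tested.

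**Figure D3:**
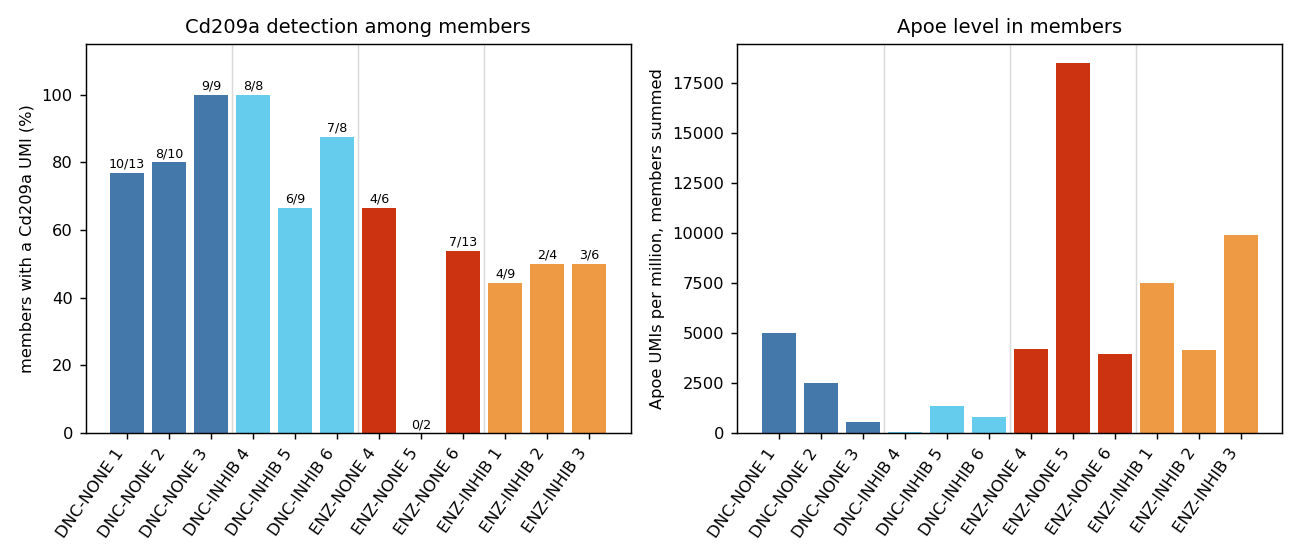
Left, the percentage of the members of each library with a Cd209a UMI, with cells over members above each bar; right, Apoe CPM of the summed members. Bars of Dounced libraries (blue) reach 66.7% to 100% on the left and stay at or under 5029 CPM on the right, and bars of digested libraries (red and orange) reach 0% to 66.7% and 3980 to 18546.

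The second question was whether members carried the response to warm digestion. A list of 19 activation genes, which the study uses to score all brain cell types and bases on a separate unsorted experiment, holds immediate early genes such as Fos and Junb. It took 2.55%, 0.538% and 1.53% of the members' UMIs in ENZ-NONE. It took 0.240%, 0.0736% and 0.0791% for the DNC-NONE libraries, 0.0680%, 0.165% and 0.205% for DNC-INHIB and 0.117%, 0.111% and 0.0491% for ENZ-INHIB. Every ENZ-NONE library lay above every other library. In ENZ-NONE 5 all 18 UMIs of these genes came from 1 of its 2 members, at 0.807% of that cell's UMIs, and the other member held 0. The means were 1.54% ± 1.01 (SD, n = 3) and 0.123% ± 0.0662 (n = 9), a difference of 1.42 percentage points (two-sided exact permutation test, p = 0.00909, the smallest this design can give). Permuted within batch the exact permutation p was 0.0222. The other kept cells of the same libraries read 0.620%, 0.592% and 1.33% in ENZ-NONE and 0.0962% to 0.278% elsewhere. Members of ENZ-NONE 4 stood above the other cells of their library, and those of ENZ-NONE 5 and 6 stood close to them.

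**Figure D4:**
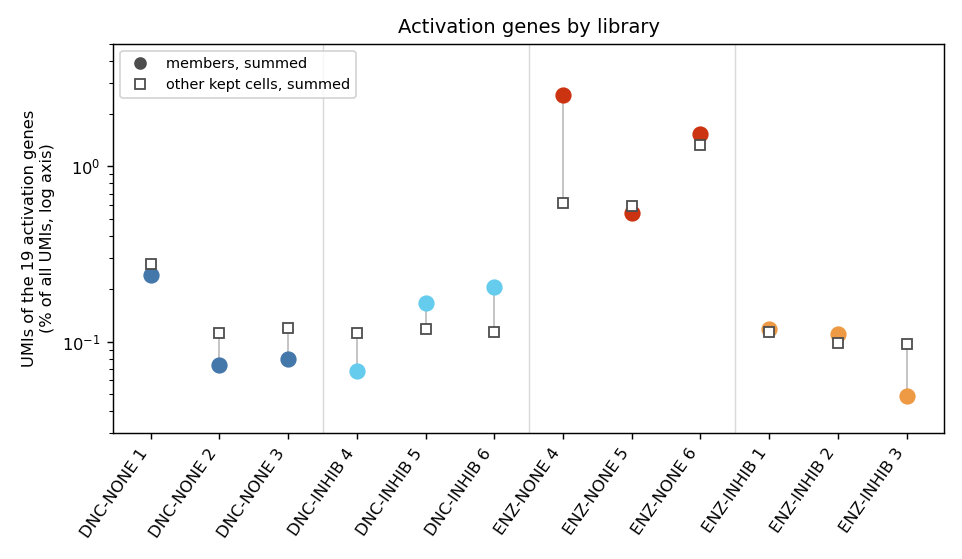
UMIs of the 19 activation genes as a percentage of all UMIs, on a log axis, for summed members (circles) and summed other kept cells (squares) of each library, joined by a line. The 3 ENZ-NONE libraries lie between 0.538% and 2.55% in members, above all 9 others, which lie at or under 0.240%.

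Gene by gene, sums over members were fitted with edgeR on 347 genes that passed its count filter, with ENZ-NONE set against the mean of the other 3 groups. The call needed a Benjamini-Hochberg adjusted p under 0.05 and an absolute log2 fold change over 0.58. It was met by 6 genes, all higher in ENZ-NONE, which is 1.73% of the genes tested, and 0 were lower (0%). 22 genes had an unadjusted p under 0.05, and the median log2 fold change over all 347 genes was -0.02. The filter asked for a minimum level in at least 3 libraries, so a gene high in ENZ-NONE alone had to be seen in ENZ-NONE 5, which gave 3343 UMIs from 2 members. Of the 19 activation genes 5 passed the filter. Fos, Zfp36, Btg2 and Ier5 could pass it only through the ENZ-NONE libraries, so how many of the 5 were called says nothing of the list. Leaving out ENZ-NONE 5 gave 13 calls, leaving out ENZ-NONE 4 or 6 gave 6 or 4, and leaving out any of the 9 libraries of other groups gave 12 to 16, with 404 to 434 genes then tested because the filter then asked for 2 libraries.

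Fos, a subunit of the AP-1 transcription factor, gave 54, 5 and 112 UMIs in the ENZ-NONE libraries, the 5 from 1 cell. The DNC-NONE libraries gave 3, 0 and 0 UMIs of it, the DNC-INHIB libraries 0, 3 and 4 and the ENZ-INHIB libraries 1, 0 and 0. Fos rose by a log2 fold change of 5.77 ± 0.49 (SE, edgeR adjusted p = 2.63e-07), and it was seen in 18 of 21 ENZ-NONE members. Junb, an AP-1 partner, gave 70, 2 and 109 UMIs in ENZ-NONE and 3 to 30 elsewhere, and rose by 2.88 ± 0.41 (edgeR adjusted p = 0.000311). In ENZ-NONE 5 its level of 598 CPM was below the 887 of DNC-NONE 1, so for Junb the groups overlapped. Zfp36, which destroys cytokine mRNA, gave 13, 3 and 53 UMIs in ENZ-NONE and at most 4 elsewhere, and rose by 3.72 ± 0.55 (edgeR adjusted p = 0.000315). Btg2, a brake on proliferation, gave 22, 3 and 50 UMIs and rose by 2.90 ± 0.45 (edgeR adjusted p = 0.000453). Ier5, an immediate early gene, rose by 2.32 ± 0.55 and Pim1, a kinase of cytokine signalling outside the activation lists, by 2.18 ± 0.52 (edgeR adjusted p = 0.0336 for each). By CPM, Fos, Zfp36, Btg2 and Ier5 were higher in each ENZ-NONE library than in any other library. These genes could pass the filter only through the ENZ-NONE libraries, so the filter favoured this order, which is not separate support. Zfp36 did not pass without ENZ-NONE replicate 6 (log2 fold change 3.49, edgeR adjusted p = 0.149), and Ier5 and Pim1 did not pass with DESeq2 (adjusted p = 0.0592 for each).

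Activation genes under the count filter were described by cells. Dusp1, the phosphatase that switches off MAP kinases, gave 192 UMIs in 16 of 21 ENZ-NONE members and 3, 5 and 0 UMIs in the other 3 groups. It was at 5134 and 3194 CPM in ENZ-NONE 4 and 6 and at 0 in ENZ-NONE 5. Jun was in 15, Hspa1a, a heat-shock chaperone, in 11, Atf3 in 9 and Socs3, a brake on cytokine receptors, in 7 of the 21 members. Ccl4, a chemokine on the second list of 25 genes, which the study chose on these samples, gave 96 UMIs in 6 ENZ-NONE members and 0 in the other 3 groups. With no filter beyond 1 UMI, 9469 genes were tested and 27 passed. Of the 14 activation genes then measured 11 were called higher, Dusp1, Jun, Hspa1a, Socs3, Atf3 and Rgs1 among them. Egr1, Fosb and Hist1h1e were not called. A gene seen only in ENZ-NONE members, as Rgs1 was, entered through that group, so this count is not separate support. The 27 calls also included Igkc and Ly6d, and the 36 and 10 UMIs of these in members all came from the cell with B cell genes.

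**Figure D5:**
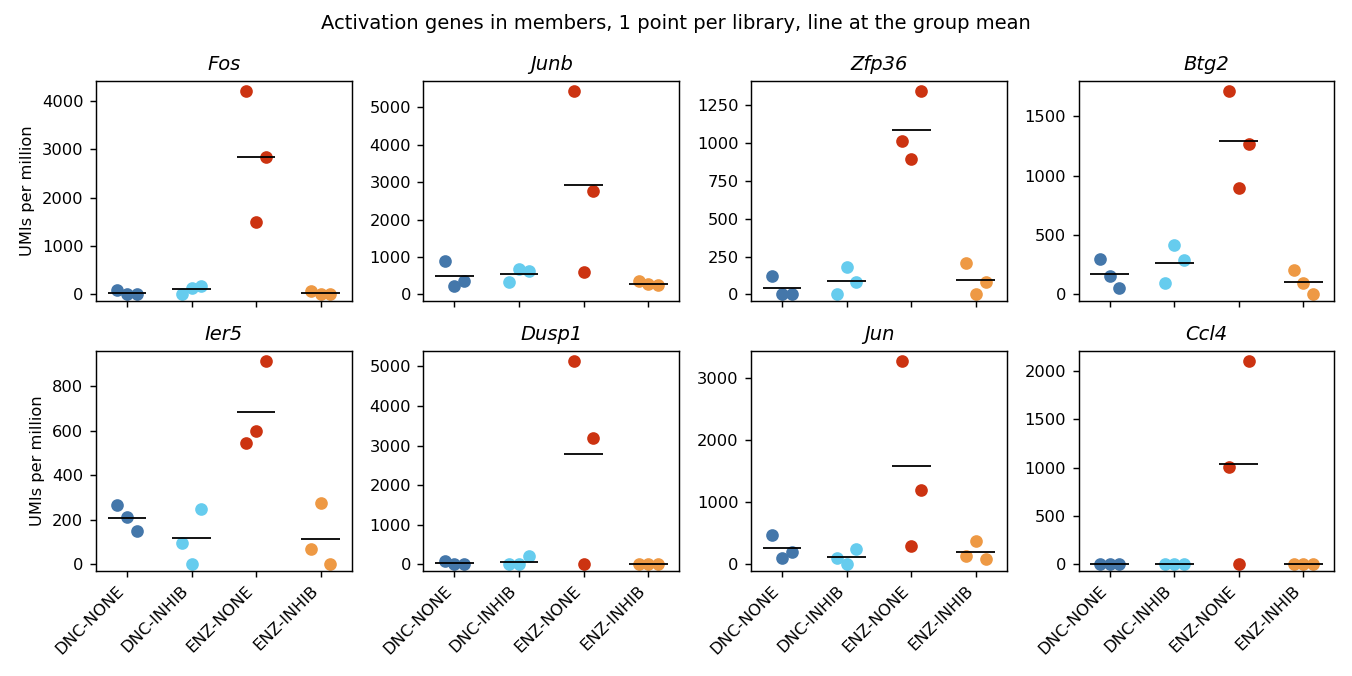
CPM of 8 activation genes in the summed members of each library (points; horizontal lines are means of n = 3 libraries). ENZ-NONE points of Fos, Zfp36, Btg2 and Ier5 lie above all others, an order that the count filter favoured. Dusp1 and Ccl4 are at 0 in ENZ-NONE 5.

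The rule's own genes chose the members in every group, so their fold changes in this fit are not given. Their values by library and preparation above describe the members and carry no test. Of 6 class II loading genes tested in this fit, 0 were called, at log2 fold changes from -0.43 to 0.47. Of 9 migration genes and 7 microglial identity genes tested, 0 were called in each list. The migration genes include Crip1, a gene of the rule, which is not read here. Of all 347 genes tested 1.73% were called, so 0 calls in lists this short say nothing of the lists.

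The third question was whether the inhibitors altered the members on their own. In DNC-INHIB against DNC-NONE, 0 of 347 genes were called by edgeR (0%), and 3 genes had an unadjusted p under 0.05, namely Ifi27l2a (log2 fold change -1.01), Apoe (-1.92) and S100a10 (0.86). DESeq2 also called 0, with 0 genes at an unadjusted p under 0.05. For Apoe the DNC-NONE libraries read 5029, 2522 and 544 CPM and the DNC-INHIB libraries 48.6, 1375 and 793, which overlap.

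The last question was whether warm digestion moved members and the other kept cells of the same library by different amounts. The interaction of member and ENZ-NONE was called for 0 of 347 genes (0%), with 15 at an unadjusted p under 0.05, and DESeq2 called 0. Btg2 had the largest estimate of the 5 activation genes tested, at log2 1.48 (edgeR adjusted p = 0.261), and Fos the lowest, at -1.26, and neither passed. The count was not stable to which libraries and genes entered. With no filter 8 genes passed, and leaving out 1 library other than ENZ-NONE replicate 6 let 1 to 5 genes pass, as described under the processing alternatives. Irf8, Cd83, Nfkbia and Ccl4 were the genes called most often there, each with a larger estimate in members. The count filter was applied to the members' sums alone, which favours genes high in ENZ-NONE members. That direction is therefore not separate support. Irf8 had 68, Cd83 54, Nfkbia 71 and Ccl4 96 UMIs over all members, so a difference between members and other cells in these 4 genes was not settled at this depth.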

How the data were processed

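The files hold raw UMI counts per gene and cell, which the authors made with Cell Ranger 3.0.0 on mm10 from 10x 3′ libraries and deposited as filtered matrices. 12 mice gave 12 libraries, from 2118143 to 3654465 UMIs each, so 1 mouse is 1 replicate. Barcodes under 300 genes or 500 UMIs, or over 10% mitochondrial UMIs, were removed. No doublet caller was run, and members with at least 2 lymphocyte or 3 microglial defining genes were left out as alternatives instead. The members and lists were chosen with earlier results of these data known. Members against other cells is what the rule used and was not tested. Shares were compared over libraries by two-sided exact permutation tests. UMI counts summed over members per library were fitted in edgeR 4.0.16 (R 4.3.3), with TMM scaling, its expression filter, quasi-likelihood tests and Benjamini-Hochberg adjustment. A call needed an adjusted p under 0.05 and an absolute log2 fold change over 0.58. The interaction fit held library as a block. DESeq2 1.42.0 was an alternative, and scripts were tested on simulated data. Intervals cover counting error only.

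Genes were named if they belonged to the rule or to a fixed list (those with most UMIs in members, or at 0), if edgeR called them, or if they ranked among the 12 highest or 6 lowest ratios outside the lists. The genes named in the split by Cd209a and in the interaction alternatives, and Zbtb46, Kmo, Cd24a, Chil3, Vim, Ctsd, H2-Oa, H2-Ob, Hspa1a, Socs3, Atf3, Rgs1, S100a10, Ifi27l2a and Igkc, were named after their values were seen. Promoter windows came from RefSeq on GRCm38.p6. Alternatives covered scaling, filters, tool, batch, membership, depth by thinning to 500 UMIs, pairing and each library left out.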

Additional observations from a re-analysis of the deposited data

Results flagged for a closer look

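Of 25 sets of 6 or 9 libraries checked for a library far from the rest, 5 held one. The sets reuse the same libraries, so this count cannot be set against a chance rate. The rule used Cd209a, so flags on its values only describe the members. ENZ-NONE 5 was the lowest of the 6 digested libraries for members with a Cd209a UMI, at 0%, and it held 2 members. The same library was the highest of the 6 libraries without inhibitors for Apoe, at 18546 CPM, all of it from 1 cell. DNC-INHIB 4 was the highest for the Cd209a level, at 7967 CPM, among the 6 Dounced libraries, among the 6 with inhibitors and among the 9 outside ENZ-NONE, so 3 of the 5 are 1 value seen in 3 sets. All of its 8 members had a Cd209a UMI.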

How the results depend on the processing

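Of 379 values under alternatives, 326 kept their direction and side of the threshold, or stayed within the allowed range. With 2 to 13 members a library, no share difference was resolved, and directions were unstable. Digested minus Dounced was 0.0697 points in batch 2 alone, and inhibitor minus none 0.0487 in batch 1 alone. ENZ-NONE minus the other 9 became 0.00117 after thinning, 0.0140 without members holding microglial markers and 0.353 in batch 2 alone. It was 0.00867, 0.0221 and 0.107 without DNC-NONE 1, ENZ-NONE 4 and ENZ-NONE 5. Counting only members with a Cd209a UMI, chosen after seeing the data, gave -0.158 points for digested minus Dounced, which carries no test because that choice came from the same values. The cause of these changes was not tested.

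Leaving out 1 library moved digested minus Dounced from -0.110 to -0.000628, inhibitor minus none from -0.124 to -0.0153, and ENZ-NONE minus the rest from -0.165 to 0.107 points. The activation difference stayed between 0.909 and 1.92 points (exact permutation p from 0.0121 to 0.0364). Within batch 1 it was 1.42 (exact p = 0.133) and within batch 2 1.40 (exact p = 0.333), each the smallest p its batch can give. With the 25-gene list, which the study chose on these samples, it was 1.52.

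In edgeR, ENZ-NONE calls ran from 4 to 16 with 1 library left out, and were 27 with no filter and 15 for members with a Cd209a UMI. Calls of the interaction ran from 0 to 5, and were 8 and 4 under the same settings. DNC-INHIB calls were 0 throughout. Fos, Btg2 and Junb were called under all 21 alternatives run for them. Zfp36 lost its call in 1, and Ier5 and Pim1 in 6 each. The interaction estimate of Fos turned to 1.04 with Crip1 dropped and 0.68 for members with a Cd209a UMI, and that of Junb ran from -0.15 without ENZ-NONE 4 to 1.24. DESeq2 size factors moved the median interaction of all genes from 0.02 to -0.09.

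The replicate numbers did not pair the libraries, since deviations of same-numbered libraries correlated from -0.155 to 0.148. With the number as a replicate block, the exact permutation p was 0.656 for digested minus Dounced and 0.438 for inhibitor minus none. The ENZ-NONE contrasts could not be fitted with that block.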
